A study of Mus musculus with 38 samples.

Results

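A set of 6 genes of the aryl hydrocarbon receptor pathway was followed, 6 of the 55487 genes in the deposited count tables. They are Ahr, Ahrr, Cyp1a1, Cyp1b1, Tiparp and Nqo1. They were selected on their place in the pathway and on measured values of these samples, namely the responses to hypoxia, co-culture and panobinostat in each cell type, with the rise of Cyp1a1 in glioma cells already known, and each was matched by symbol to 1 Ensembl gene. Their direct responses to low oxygen, co-culture and drug are therefore given as descriptions without individual p-values. Counts of members called or at an unadjusted p under 0.05 are descriptions too. Adjusted p-values are given for interaction terms and for differences between cell types, except where a member was nearly absent from BV2. The adjusted p-values too were computed with such results known.

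The study sequenced poly(A) RNA from 38 mouse libraries in 18 groups. BV2 is a microglial cell line, GL261 is a glioma cell line, and BMDM are primary macrophages grown from bone marrow, labelled wild type. Each cell type was kept alone or in direct co-culture, at 21% oxygen (normoxia) or below 0.1% oxygen (hypoxia), for 16 h at 37 °C and 5% CO2. One BV2 cell was seeded for every 2 GL261 cells, or 1 BMDM for every 1 GL261 cell. A second experiment exposed BV2 or BMDM without glioma cells to DMSO in normoxia, to DMSO in hypoxia, or to 10 nM panobinostat, a histone deacetylase inhibitor, in hypoxia. All groups held 2 libraries except the BMDM co-cultures, which held 3 at each oxygen level. BV2 cells were kept in medium with 2% serum and BMDM with 10%, and all cells were fixed in 3% glyoxal. GL261 co-cultured with BV2 were in the 2% serum medium, while the serum of GL261 alone is not given separately and may have differed. The partner of the co-cultured GL261 cells was taken to be BV2, whose counts share their table, although their own labels do not name it. How co-cultured cells were taken apart is not given in the sources used here. BV2 and GL261 are each a single line, and nothing ties the BMDM libraries to separate mice, so the tests measure only the spread between these libraries, which may in part be technical.

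The aryl hydrocarbon receptor (Ahr) is a ligand-activated transcription factor held in the cytosol by chaperones, among them Hsp90 and Ptges3. On binding dioxins, plant indoles or tryptophan breakdown products such as kynurenine, it enters the nucleus, pairs with Arnt and binds DNA at sites with the core GCGTG. Cyp1a1 and Cyp1b1, monooxygenases that oxidise aromatic hydrocarbons, are its classic targets, and Ahrr, the receptor's repressor, and Tiparp, a mono-ADP-ribosyltransferase, are induced targets that dampen it. Nqo1, a quinone reductase, is induced both by this receptor and by the antioxidant factor NRF2 (Nfe2l2). Arnt is also the partner of the hypoxia-inducible factors, so both pathways draw on the same subunit, and the receptor is known in glioma as a target of kynurenine made by the tumour.

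The 250 bases before the RefSeq start were read for the 5 members with an entry in the promoter table, and 4 are printed because they hold the receptor's core. Coordinates are those of build GRCm38.p6, sequences are from RefSeq, and each run is written 5′ to 3′ on the gene's strand. Capitals mark GCGTG, or CACGC where the core lies on the opposite strand.
Cyp1a1, chr9:57697363-57697612, plus strand: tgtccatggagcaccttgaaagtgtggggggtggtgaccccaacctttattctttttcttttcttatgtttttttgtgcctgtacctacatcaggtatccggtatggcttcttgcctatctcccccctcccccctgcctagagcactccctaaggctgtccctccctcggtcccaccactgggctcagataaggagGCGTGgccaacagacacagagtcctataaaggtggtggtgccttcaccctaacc
Tiparp, chr3:65528197-65528409, plus strand: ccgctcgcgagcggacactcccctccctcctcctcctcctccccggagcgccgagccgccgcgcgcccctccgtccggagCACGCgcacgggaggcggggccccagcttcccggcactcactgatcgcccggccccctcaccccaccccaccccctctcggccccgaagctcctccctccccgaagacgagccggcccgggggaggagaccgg
Ahrr, chr13:74292332-74292581, minus strand: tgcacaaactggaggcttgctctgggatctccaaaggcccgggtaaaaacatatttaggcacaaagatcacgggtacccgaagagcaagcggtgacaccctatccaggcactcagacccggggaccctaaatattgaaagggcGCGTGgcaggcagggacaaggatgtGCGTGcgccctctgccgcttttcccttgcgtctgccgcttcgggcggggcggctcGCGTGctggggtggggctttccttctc
Cyp1b1, chr17:79715062-79715311, minus strand: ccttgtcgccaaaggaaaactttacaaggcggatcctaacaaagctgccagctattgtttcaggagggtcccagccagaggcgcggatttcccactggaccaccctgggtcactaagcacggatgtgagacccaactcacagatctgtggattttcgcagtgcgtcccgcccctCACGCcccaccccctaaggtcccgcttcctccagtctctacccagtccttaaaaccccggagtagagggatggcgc

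The Ahrr window held 3 copies of GCGTG and the windows of Cyp1a1, Tiparp and Cyp1b1 held 1 each, so the core was found in 4 of 5 member windows. On either strand it was found in 28.2% of 32851 RefSeq promoter windows of the same length. The longer form TNGCGTG, which contains the core, was found in the Ahrr window alone among the members and in 4.1% of all windows. ACGTG, the core bound by hypoxia-inducible factors with Arnt, was in 0 of the 5 member windows and 16.6% of all. TGACNNNGC, the core of the antioxidant element bound by NRF2, was also in 0 of 5, the Nqo1 window included, and in 10.2% of all. The Cyp1a1 window lies inside the gene as annotated by GENCODE M21 (chr9:57687928-57703824) but in no exon of it, and the 37 bases of the Tiparp window that lie in an annotated exon are not printed. These are matches of letters in short windows, and binding was not measured here.

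All 6 members are annotated as protein-coding. On mm10, Ahr lies at chr12:35497974-35535038, Ahrr at chr13:74211118-74292331, Cyp1b1 at chr17:79701537-79715061, Nqo1 at chr8:107388225-107403206 and Tiparp at chr3:65528410-65555518. Exons of Ahr share 127 bases with the antisense transcript Gm48236, and those of Tiparp share 223 bases with the antisense pseudogene 4931440P22Rik. Whether reads were counted by strand is not given in the sources used here, so reads in those stretches cannot be told apart. Of the 75-base words in its exons, Cyp1a1 shares 2.32% with its neighbour and close relative Cyp1a2, which had at most 13 counts summed over any group.

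Libraries held between 13548800 and 27238900 counts in the BV2 and GL261 table, 9909370 and 17000500 in the BMDM table and 9634700 and 15869200 in the panobinostat experiment. A count of 0 then allows up to 0.110 to 0.311 CPM, the counts scaled to the library total, taking 3 counts as the limit, for counting error only. Levels below are CPM scaled by TMM factors, which correct for differences in RNA composition, within each cell type of each experiment. The tables were normalized separately, so levels set side by side across them carry no test. A gene was called changed at an adjusted p under 0.05 in edgeR's quasi-likelihood test over all genes tested. In bulk RNA, fewer cells of one kind and less RNA per cell cannot be told apart.

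The labelled cell types were checked against marker genes. The 8 microglia and macrophage markers summed to between 1956 and 2675 CPM in BV2 alone and to between 1.67 and 4.03 in GL261 alone, where Aif1 and Itgam were at 0. The 8 glial and glioma markers summed to between 1666 and 2277 CPM in GL261 alone, with Sox9 at 0, and to between 1.14 and 2.26 in BV2 alone. Among BMDM, the 6 libraries of the panobinostat experiment stood apart from the other 10. In them, 7 fibroblast markers chosen after the data were seen (Col1a1, Col1a2, Col3a1, Dcn, Lum, Pdgfrb and Thy1) summed to between 2674 and 23239 CPM, against 70.8 to 595 CPM in the BMDM of the co-culture experiment and 569 to 939 CPM in GL261 alone. The sum was carried by the collagens and Pdgfrb, with means in BMDM with DMSO in normoxia of 12934 CPM for Col1a1, 6335 for Col1a2, 2293 for Col3a1 and 281 for Pdgfrb, while Dcn (2.81 CPM), Thy1 (1.77) and Lum (0.0347) were low. Results from these 2 sets of BMDM are given separately throughout. Co-culture libraries also held transcripts of the partner. By the median over genes specific to GL261, these came to 0.760% ± 0.271 (SD, n = 2) of their GL261 level in normoxic BV2 co-cultures, 2.22% ± 0.202 (n = 2) in hypoxic ones, and 2.43% ± 1.21 and 3.74% ± 2.32 (n = 3 each) in normoxic and hypoxic BMDM co-cultures. In GL261 co-cultures, BV2 transcripts came to 0.773% ± 0.202 and 0.237% ± 0.0266 (n = 2 each). Libraries of cells alone gave at most 0.0615%.

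**Figure D1:**
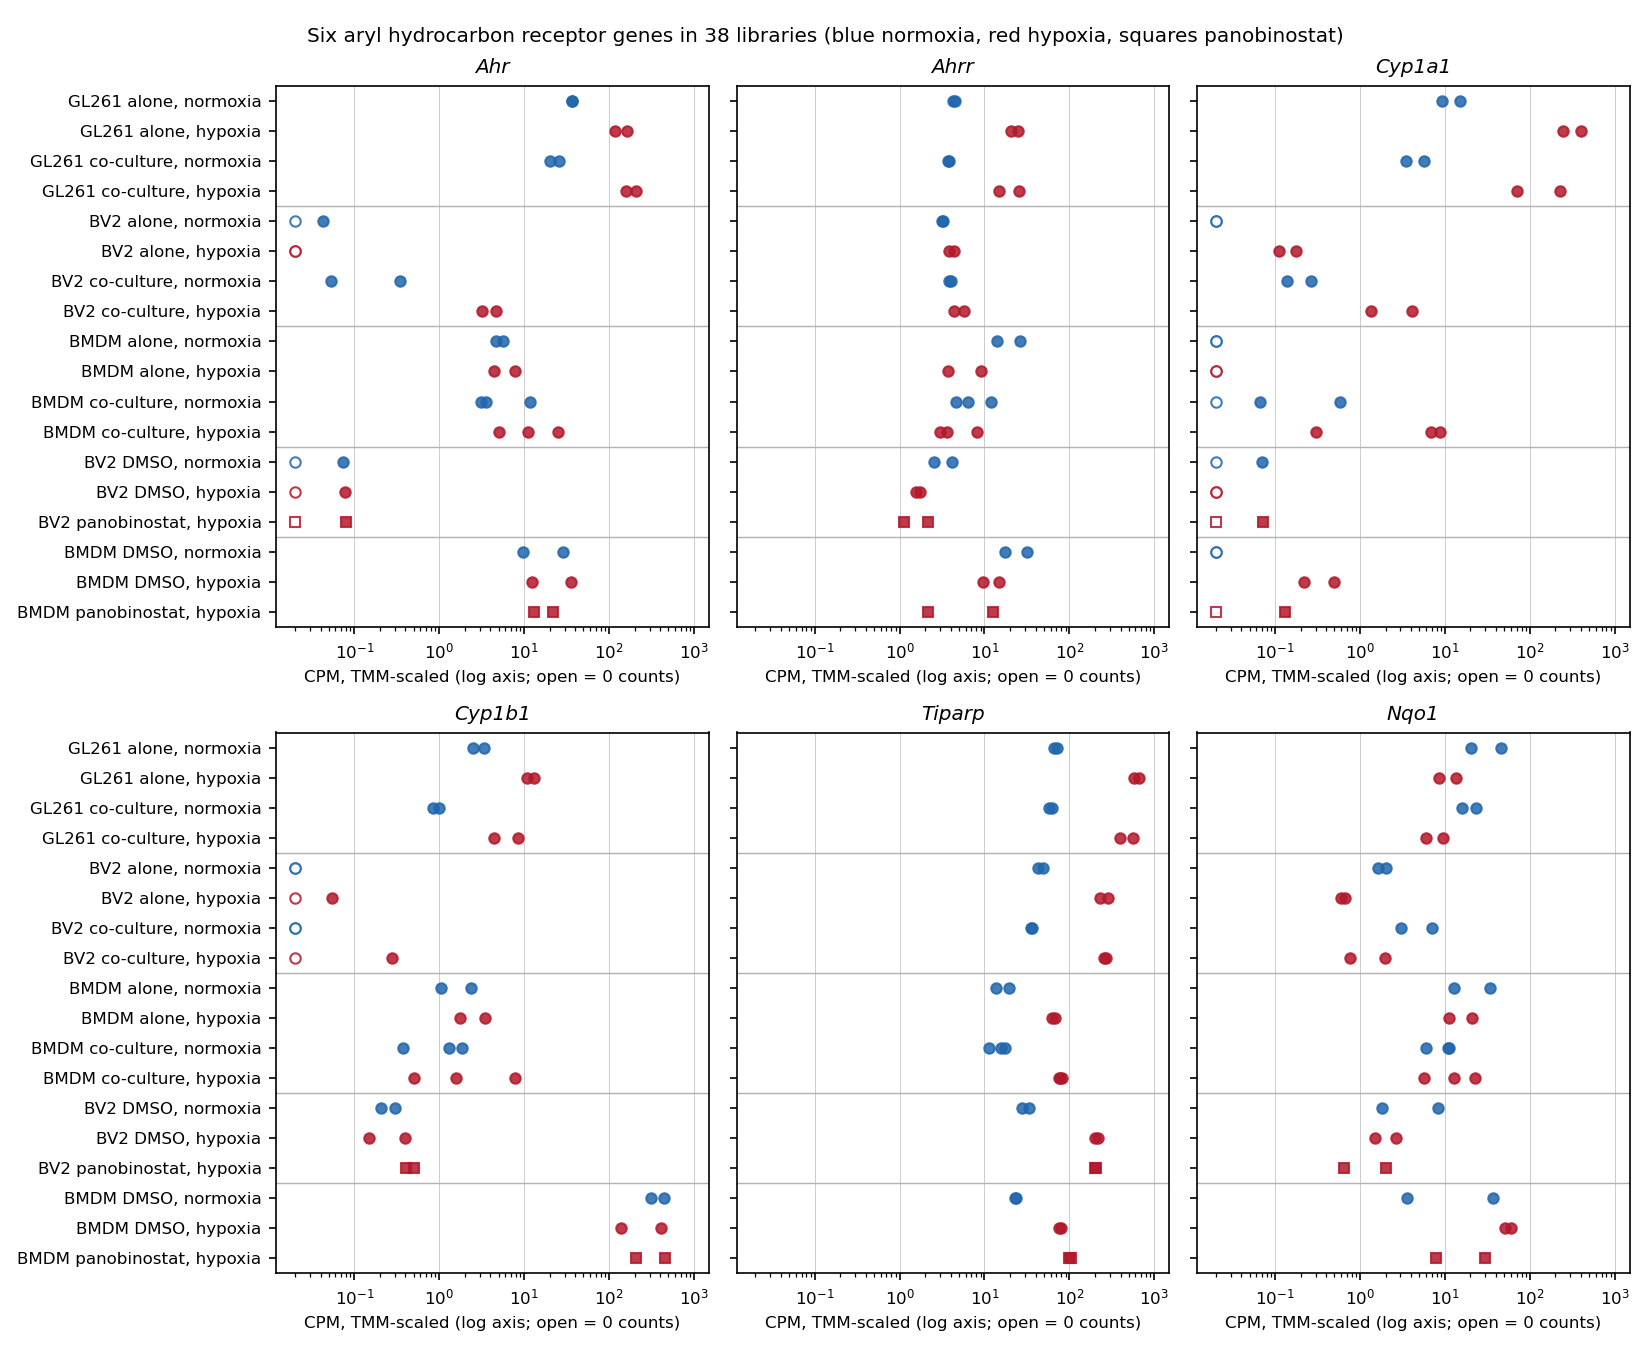
TMM-scaled CPM (log axis) of the 6 genes in each of 38 libraries, 1 point per library and 1 row per group, with normoxia in blue, hypoxia in red, panobinostat as squares and open symbols for 0 counts. Tiparp is higher in hypoxia in every pair of groups shown, while Ahr and Cyp1a1 are highest in the GL261 rows and Cyp1b1 is highest in the BMDM of the panobinostat experiment.

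In GL261 cells all 6 members changed with hypoxia, 5 of them upward and Nqo1 downward, both alone and in co-culture. The largest rise was that of Cyp1a1, from 15.1 and 9.23 CPM in the 2 normoxic libraries to 396 and 245 CPM in the hypoxic ones, a log2 fold change of 4.72 ± 0.50 (SE). Across all genes tested in GL261 alone, 44.6% were called, and in co-culture 52.4%. The median log2 fold change of the 6 members was 2.20 alone and 2.89 in co-culture, against −0.03 and −0.04 over all genes tested. Because the response of Cyp1a1 helped choose these genes, these counts describe them and are not evidence about the pathway.

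The receptor's own transcript, Ahr, was at 37.1 and 36.8 CPM in normoxic GL261 and at 164 and 119 CPM in hypoxic GL261. The groups did not overlap, and the log2 fold change was 1.94 ± 0.19. Its repressor Ahrr also rose, from 4.25 and 4.48 to 24.8 and 20.3 CPM (2.37 ± 0.25). Tiparp rose from 65.9 and 70.8 to 654 and 577 CPM (3.17 ± 0.19), and Cyp1b1 from 3.33 and 2.51 to 10.95 and 12.9 CPM (2.03 ± 0.31). All of these groups were apart. How many of all genes had separate groups was not computed, and 44.6% of all genes tested were called here. Nqo1 went the other way, from 45.6 and 20.3 CPM to 13.5 and 8.56 CPM (−1.57 ± 0.36). Its call rested on 1 library, since without normoxic replicate 1 the log2 fold change was −0.87 and was not called.

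Per kilobase of annotated exon, which allows levels of different genes to be set side by side, Tiparp was the most abundant member in hypoxic GL261 at 141 CPM per kb, followed by Cyp1a1 at 115. Ahr stood at 22.9, Nqo1 at 7.09, Ahrr at 2.39 and Cyp1b1 at 2.04 CPM per kb. In normoxic GL261 Nqo1 was at 21.2, Tiparp at 15.7, Ahr at 5.996 and Cyp1a1 at 4.36 CPM per kb. The 2 Nqo1 libraries stood apart there, at 45.6 and 20.3 CPM, so the order of Nqo1 and Tiparp in normoxia rests on 1 library.

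In GL261 grown with microglia, hypoxia took Ahr from 25.8 and 20.4 to 207 and 157 CPM (2.98 ± 0.20) and Cyp1a1 from 5.65 and 3.44 to 229 and 70.8 CPM (5.04 ± 0.54). Ahrr went from 3.83 and 3.68 to 25.3 and 15.02 CPM (2.42 ± 0.26), Cyp1b1 from 0.845 and 0.983 to 8.52 and 4.48 CPM (2.81 ± 0.37), and Tiparp from 61.7 and 57.4 to 566 and 391 CPM (3.01 ± 0.19). The hypoxic libraries lay above the normoxic ones for each of these 5 genes. The share of all genes with separate groups was not computed, and 52.4% of all genes tested were called here. Nqo1 fell from 23.3 and 16.1 to 9.40 and 6.06 CPM (−1.35 ± 0.38), and this call was lost without co-culture normoxia replicate 1 (−1.05) or co-culture hypoxia replicate 2 (−1.04).

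No member was called in GL261 for co-culture itself at either oxygen level. In normoxia 0.514% of all genes tested were called and 0 of 6 members, with 3 members at an unadjusted p under 0.05 and 1 called by DESeq2. In hypoxia 1.39% of all genes and 0 of 6 members were called, with 2 at an unadjusted p under 0.05 and 0 called by DESeq2. The fitted log2 differences of co-culture from monoculture in normoxia were all below 0, from −0.20 for Tiparp to −1.67 for Cyp1b1, with Cyp1a1 at −1.43, Nqo1 at −0.74, Ahr at −0.68 and Ahrr at −0.21. In hypoxia they were −1.10 for Cyp1a1, −0.88 for Cyp1b1, −0.53 for Nqo1, −0.36 for Tiparp, −0.17 for Ahrr and 0.36 for Ahr. Cyp1a1 was called in hypoxia when co-culture hypoxia replicate 1 was left out (−2.18).

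The difference between the 2 hypoxia responses in GL261 was tested by the interaction of hypoxia and co-culture, with 0.00% of genes and 0 of 6 members called. Ahr was the 1 member at an unadjusted p under 0.05, and DESeq2 called it. Its response was larger in co-culture by 1.04 ± 0.27 on the log2 scale, with an adjusted p of 0.402 in edgeR and between 0.00852 and 0.973 over 13 alternative settings. Without adjustment, 1354 of all genes tested lay under 0.05.

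**Figure D2:**
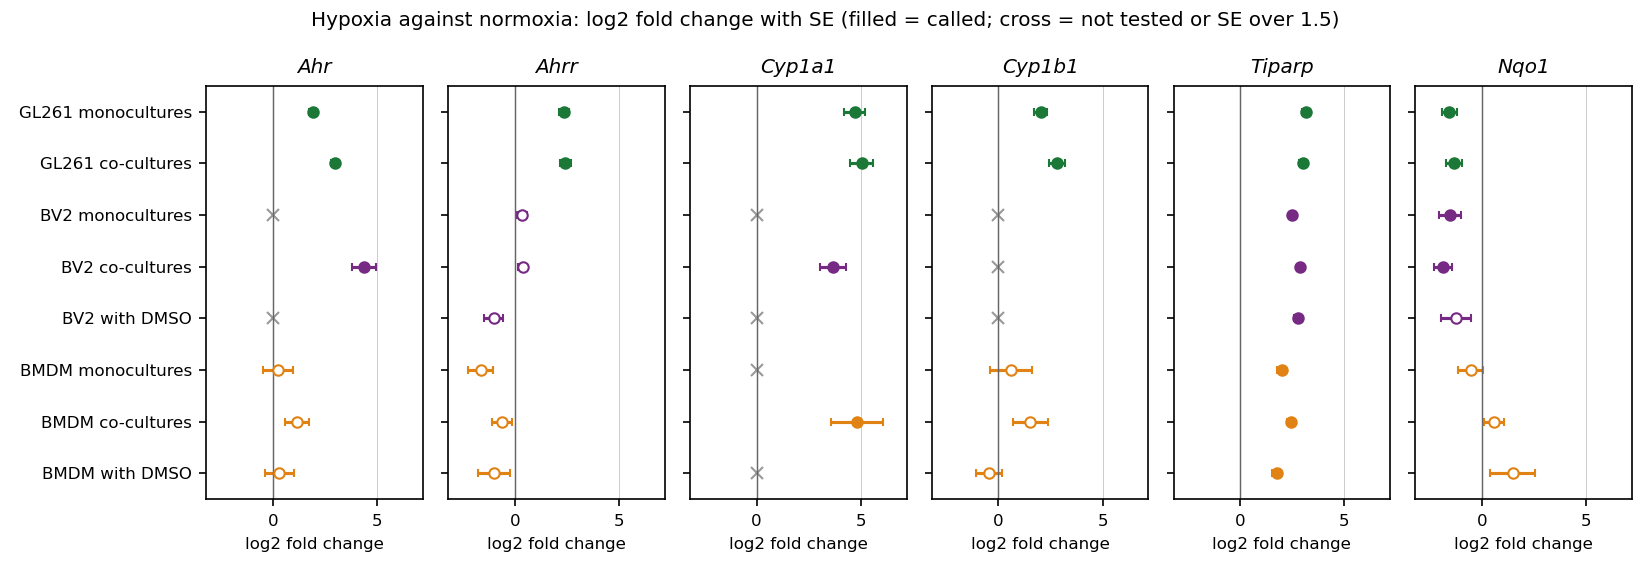
Log2 fold change of hypoxia against normoxia with its standard error (x axis) for each of the 6 genes in 8 comparisons (y axis), GL261 in green, BV2 in purple and BMDM in orange. Filled points were called and open points were not, and a cross marks a gene that was not tested or had a standard error over 1.5. Tiparp is to the right of 0 in all 8 rows and Ahrr in the 2 GL261 rows and, without a call, in 2 BV2 rows.

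In BV2 microglia the receptor was close to undetected. Across the 4 BV2 monocultures and the 6 BV2 libraries of the panobinostat experiment, Ahr had at most 1 count in any library. In hypoxia the GL261 monocultures held at least 844-fold more Ahr than the BV2 monocultures, with 3 counts per BV2 library as the floor. The targets Cyp1a1 and Cyp1b1 were at 0 counts in both normoxic BV2 monocultures, at least 95.1-fold and 22.9-fold below normoxic GL261. Tiparp in these cells was at 43.1 and 48.5 CPM in normoxia and rose to 232 and 285 CPM in hypoxia (2.49 ± 0.13).

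Of the 5 members tested in BV2 alone, 2 were called with hypoxia, against 61.9% of all genes tested, and the second was Nqo1. It fell from 1.62 and 2.05 CPM to 0.590 and 0.659 CPM (−1.54 ± 0.52). The call was lost when normoxia replicate 2 (−1.36), hypoxia replicate 1 (−1.44) or hypoxia replicate 2 (−1.60) was left out. Ahrr was at 3.15 and 3.21 CPM in normoxia and 3.77 and 4.34 CPM in hypoxia (0.35 ± 0.23) and was not called. Cyp1a1 had 0 counts in both normoxic libraries and 3 and 2 counts in the hypoxic ones.

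The hypoxia response of Ahrr differed between the 2 cell lines. It was smaller in BV2 than in GL261 by 1.92 ± 0.35 on the log2 scale (−1.92, adjusted p = 2.54e-04 by edgeR), where the median of this difference over all genes tested was 0.15. Over 14 alternative settings its adjusted p stayed between 1.52e-07 and 0.00199. The response of Tiparp was also smaller in BV2 (−0.58 ± 0.22, adjusted p = 0.0475), but this call held in only 6 of 14 alternatives, with adjusted p-values between 0.00821 and 0.213. It was lost without either normoxic BV2 library (−0.66 and −0.57), hypoxic BV2 replicate 1 (−0.42), normoxic GL261 replicate 1 (−0.59) or hypoxic GL261 replicate 1 (−0.54). That of Nqo1 differed by 0.13 ± 0.84 (adjusted p = 1.00), with a standard error too wide to show that the lines respond alike. These were 2 calls among 6 members, against 37.4% of all genes. The hypoxia responses in each line helped choose the members, so these differences describe them.

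At rest, 5 of 6 members were lower in normoxic BV2 than in normoxic GL261, against 73.2% of all genes that differed in either direction. Ahr had 1 and 0 counts in the normoxic BV2 libraries, and Cyp1a1 and Cyp1b1 had 0 in both. These genes were tested because of their counts in other libraries, so their calls only restate the levels. Nqo1 was lower by 4.05 ± 0.45 on the log2 scale (−4.05, adjusted p = 1.60e-07). Tiparp was lower by a much smaller amount, −0.46 ± 0.16 (adjusted p = 0.0142), and this call was lost without normoxic BV2 replicate 1 (−0.39) or normoxic GL261 replicate 2 (−0.40). Ahrr, the repressor, was the exception at −0.34 ± 0.26 (adjusted p = 0.238). Its libraries did not overlap between the lines, at 3.15 and 3.21 CPM in BV2 and 4.25 and 4.48 in GL261.

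In BV2 from co-culture, 4 of 5 members tested were called with hypoxia, against 67.3% of all genes. Tiparp rose from 36.2 and 35.3 CPM to 272 and 257 CPM (2.89 ± 0.13). Nqo1 fell from 7.12 and 3.04 CPM to 1.95 and 0.758 CPM (−1.87 ± 0.43), with no overlap, and its size depended on single libraries, from −2.79 without hypoxic co-culture replicate 1 to −1.16 without normoxic co-culture replicate 1. The other 2 were Ahr and Cyp1a1, which are almost absent from BV2 alone. Both passed the filter only through the hypoxic co-cultures, so their calls only restate the counts there. Ahr had 5 and 1 counts in normoxic co-culture and 84 and 54 counts, or 4.68 and 3.15 CPM, in hypoxic co-culture. Cyp1a1 had 2 and 5 counts in normoxia and 74 and 23 counts, or 4.12 and 1.34 CPM, in hypoxia.

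The levels of Ahr and Cyp1a1 in hypoxic BV2 co-cultures were set beside those that the measured share of GL261 transcripts would bring. That share multiplied by the Ahr level of hypoxic GL261 alone comes to 2.91 and 3.31 CPM in the 2 libraries, and by the level of co-cultured GL261 to 3.61 and 4.11, against 4.54 and 3.05 CPM measured without TMM scaling. For Cyp1a1 the products were 6.59 and 7.5 CPM with GL261 alone and 2.94 and 3.35 CPM with co-cultured GL261, against 3.997 and 1.30 measured. Measured Ahr was above both products in replicate 1 and below both in replicate 2, and measured Cyp1a1 exceeded only the co-culture product of replicate 1. Whether BV2 cells made any of this RNA was not tested. The summed glial and glioma markers moved the same way, from between 1.14 and 2.26 CPM in BV2 alone to between 36.5 and 43.8 in hypoxic BV2 co-cultures.

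Set against BV2 alone, co-culture in hypoxia gave 2 calls among 5 members, Ahr and Cyp1a1, beside 15.7% of all genes. Both passed the filter only through the hypoxic co-cultures, so this count is not read as a result about the members. Ahr was at least 22.8-fold higher than in hypoxic BV2 alone, where both libraries had 0 counts. In normoxia 14.9% of all genes and 1 of 5 members were called, and that member was Nqo1. It was at 1.62 and 2.05 CPM in BV2 alone and 7.12 and 3.04 CPM in co-culture (1.45 ± 0.39). The GL261 share brings 0.321 and 0.192 CPM of Nqo1, against 7.60 and 3.12 measured without TMM scaling. This call rested on single libraries, being lost without monoculture normoxia replicate 1 (1.27) or 2 (1.61) or co-culture normoxia replicate 1 (0.73). Ahrr in co-cultured BV2 was at 4.01 and 3.79 CPM in normoxia and 4.40 and 5.72 CPM in hypoxia (0.38 ± 0.23) and was not called. The interaction of hypoxia and co-culture called 2.19% of all genes and 0 of 5 members in BV2, with 0 called by DESeq2. The 1 member at an unadjusted p under 0.05 was Tiparp, whose log2 response was larger in co-culture by 0.40 ± 0.17 (adjusted p = 0.217 by edgeR).

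**Figure D3:**
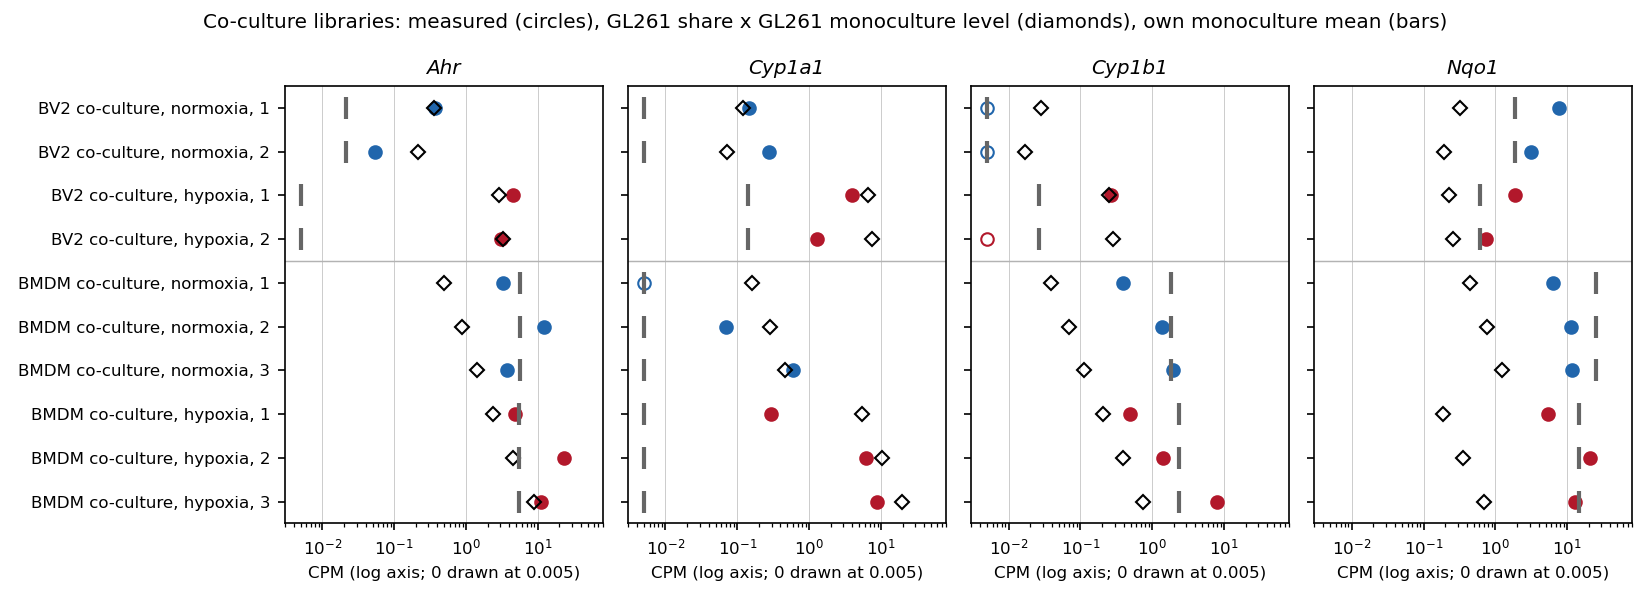
CPM without TMM scaling (log axis) of Ahr, Cyp1a1, Cyp1b1 and Nqo1 in each of the 10 co-culture libraries of BV2 and BMDM (circles, blue normoxia and red hypoxia, open for 0 counts), beside the GL261 share of that library multiplied by the level of GL261 alone (diamonds) and the mean of the same cells grown alone (grey bars). In hypoxic BV2 co-cultures the Ahr circles lie at 4.54 and 3.05 CPM and the diamonds at 2.91 and 3.31, while the Nqo1 circles lie above the diamonds in all 10 libraries.

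In macrophages Tiparp rose as well, while few of the other members were called. In BMDM alone, Tiparp went from 13.6 and 19.4 CPM to 63.1 and 68.4 CPM with hypoxia (2.00 ± 0.22), and it was the 1 of 6 members tested to be called, against 23.9% of all genes. Ahr, near absent from BV2, was present in BMDM alone at 5.64 and 4.72 CPM in normoxia and 4.44 and 7.81 CPM in hypoxia, with overlapping groups. Its target Cyp1a1 was at 0 counts in all 4 libraries. Ahrr was at 14.1 and 26.5 CPM in normoxia and 3.71 and 9.19 CPM in hypoxia, groups that did not overlap (−1.65 ± 0.59, not called). Nqo1 overlapped between the groups, at 13.0 and 34.4 CPM and then 11.3 and 20.9 CPM, and so did Cyp1b1, at 1.04 and 2.39 CPM and then 1.75 and 3.45 CPM.

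In BMDM from co-culture, 2 of 6 members were called with hypoxia, against 34.8% of all genes. Tiparp was at 11.2, 17.4 and 15.6 CPM in normoxia and 76.6, 76.1 and 82.8 CPM in hypoxia (2.41 ± 0.18). The GL261 share would bring 10.6, 19.8 and 38.6 CPM of Tiparp to the hypoxic libraries, against 74.3, 69.9 and 84.3 measured without TMM scaling. The part of GL261 transcripts in this rise was not tested. Cyp1a1 had 0, 1 and 6 counts in normoxia and 3, 92 and 103 counts in hypoxia (4.83 ± 1.25), so that the groups overlapped. Its call was lost without co-culture normoxia replicate 1 (4.15) or 2 (4.39), and Cyp1a1 was no longer tested without co-culture hypoxia replicate 2 or 3. DESeq2 did not call Cyp1a1. The gene passed the filter only through the hypoxic co-cultures, so its call by edgeR only restates the counts there.

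The GL261 share would bring 5.47, 10.2 and 19.96 CPM of Cyp1a1 to the 3 hypoxic BMDM co-cultures, more than the 0.292, 6.29 and 8.88 CPM measured without TMM scaling. For Ahr the products were 2.42, 4.53 and 8.82 CPM against 4.87, 22.9 and 11.2 measured. Hypoxic BMDM alone had 5.50 CPM of Ahr on the same scale, so replicate 1 lay below the level of the cells alone and replicates 2 and 3 above it. Its levels overlapped between normoxia (3.09, 11.7 and 3.57 CPM) and hypoxia (5.02, 24.9 and 11.01 CPM), with a log2 fold change of 1.16 ± 0.59 that was not called. Ahrr in these co-cultures was at 4.57, 12.1 and 6.36 CPM in normoxia and 3.01, 8.19 and 3.64 CPM in hypoxia (−0.62 ± 0.49, not called). These fits took no account of replicate numbers. When libraries of the same number were set side by side, Ahr was higher and Ahrr lower in hypoxia in all 3 pairs. In Nqo1, 5.99, 10.9 and 11.2 CPM in normoxia overlapped with 5.62, 22.7 and 12.7 CPM in hypoxia.

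Against BMDM alone, co-culture called 1.64% of all genes in normoxia and 0 of 6 members by edgeR, with 2 at an unadjusted p under 0.05 and 0 called by DESeq2. Those 2 were Ahrr (−1.40 ± 0.51) and Nqo1 (−1.35 ± 0.54), both lower in each of 3 co-cultures than in either monoculture. In hypoxia 7.11% of all genes and 1 of 6 members were called, the member being Cyp1a1, which was at least 26.8-fold higher than in hypoxic BMDM alone. Cyp1a1 passed the filter only through the hypoxic co-cultures, so its call only restates the counts there. That call was lost without either hypoxic monoculture library (9.21 and 9.20 on the log2 scale, values that depend on the prior count because BMDM alone had none), and in a fit of the compared groups only. The interaction of hypoxia and co-culture called 0.00% of genes and 0 of 6 members in BMDM, with 0 members at an unadjusted p under 0.05 and 0 called by DESeq2, while 636 of all genes lay under 0.05 unadjusted.

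In the panobinostat experiment, hypoxia with DMSO again raised Tiparp in both cell types. In BV2 it rose from 33.2 and 27.4 to 216 and 198 CPM (2.77 ± 0.21), the 1 of 3 members tested to be called, against 37.5% of all genes. In BMDM it rose from 23.0 and 23.7 to 79.98 and 75.9 CPM (1.74 ± 0.20), the 1 of 5 members tested to be called, against 0.483% of all genes. The BMDM call was lost without normoxia replicate 1 (1.66) or 2 (1.76), without hypoxia replicate 1 (1.64), and when only the compared groups were fitted (1.75). Tiparp was called higher in all 8 comparisons of hypoxia with normoxia, of which those alone and in co-culture share no libraries.

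The difference between BV2 and BMDM in the hypoxia response of Tiparp was 1.10 ± 0.26 on the log2 scale, larger in BV2, with an adjusted p of 0.0790 by edgeR. With the replicate number as a block, which pairs the libraries of this experiment, it was 1.10 with an adjusted p of 0.0310, and over 14 alternatives the adjusted p lay between 0.00143 and 0.270. In that comparison 0.664% of all genes and 0 of 5 members were called, with 1 member, Tiparp, at an unadjusted p under 0.05 and 1 called by DESeq2.

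Nqo1 in BV2 with DMSO was at 8.19 and 1.81 CPM in normoxia and 2.67 and 1.49 CPM in hypoxia, overlapping and not called (−1.26 ± 0.70), although with the replicate number as a block it was called lower (−1.05). In BMDM with DMSO its libraries were at 3.58 and 36.8 CPM in normoxia and 60.8 and 50.5 CPM in hypoxia (1.46 ± 1.06, not called). The groups did not overlap, but the 2 normoxic libraries stood far apart. Ahrr was at 4.10 and 2.58 CPM and then 1.73 and 1.57 CPM in BV2 with DMSO, and at 17.5 and 31.4 CPM and then 14.9 and 9.64 CPM in BMDM with DMSO. In both it was lower in hypoxia without overlap and was not called. In BV2 this direction is opposite to that of the uncalled Ahrr changes in the co-culture experiment.

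No member was called for panobinostat in hypoxia. In BV2 14.6% of all genes and 0 of 3 members were called by edgeR, with 0 members at an unadjusted p under 0.05 and 0 called by DESeq2. Tiparp stood at 208 and 200 CPM with the drug against 216 and 198 without it, and Nqo1 at 2.01 and 0.649 CPM (−0.66 ± 0.77). In BMDM 0.00% of all genes and 0 of 5 members were called, again with 0 members at an unadjusted p under 0.05 and 0 by DESeq2, while 3868 of all genes lay under 0.05 unadjusted. Tiparp was at 99.3 and 103 CPM with the drug (0.38 ± 0.19) and Nqo1 at 7.85 and 29.7 CPM (−1.57 ± 1.06), both outside the range of the hypoxic DMSO libraries. The Nqo1 values lay between those of the normoxic DMSO libraries, 3.58 and 36.8 CPM. The effect of the drug was compared between BV2 and BMDM as well, where 0.0251% of all genes and 0 of 5 members were called, with 0 members at an unadjusted p under 0.05 and 0 by DESeq2.

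Cyp1b1 had its highest level of the series in the BMDM of this experiment, at 313 and 441 CPM with DMSO in normoxia, 139 and 409 CPM with DMSO in hypoxia and 210 and 462 CPM with panobinostat. In BMDM alone in the co-culture experiment it did not exceed 3.45 CPM. The fibroblast marker sum, mostly collagen transcripts, was also highest in these libraries. It was 23239 and 20456 CPM with DMSO in normoxia, 2674 and 13841 in hypoxia and 8767 and 14390 with panobinostat, so the library lowest in Cyp1b1 within this experiment was also the lowest in these markers. The rest of the order differed. With DMSO in normoxia the library with more Cyp1b1 had the lower marker sum, and the library highest in Cyp1b1, at 462 CPM, had a sum of 14390 CPM. In the co-culture experiment the highest Cyp1b1 level, 7.79 CPM in hypoxic co-culture replicate 3, was in the library with the highest marker sum, 595 CPM, and the GL261 share would bring 0.752 CPM to it. The microglia and macrophage markers summed to between 5210 and 7636, 2299 and 3548, and 609 and 1615 CPM in the same 3 groups. The part of fibroblast transcripts in the Cyp1b1 levels was not tested.

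**Figure D4:**
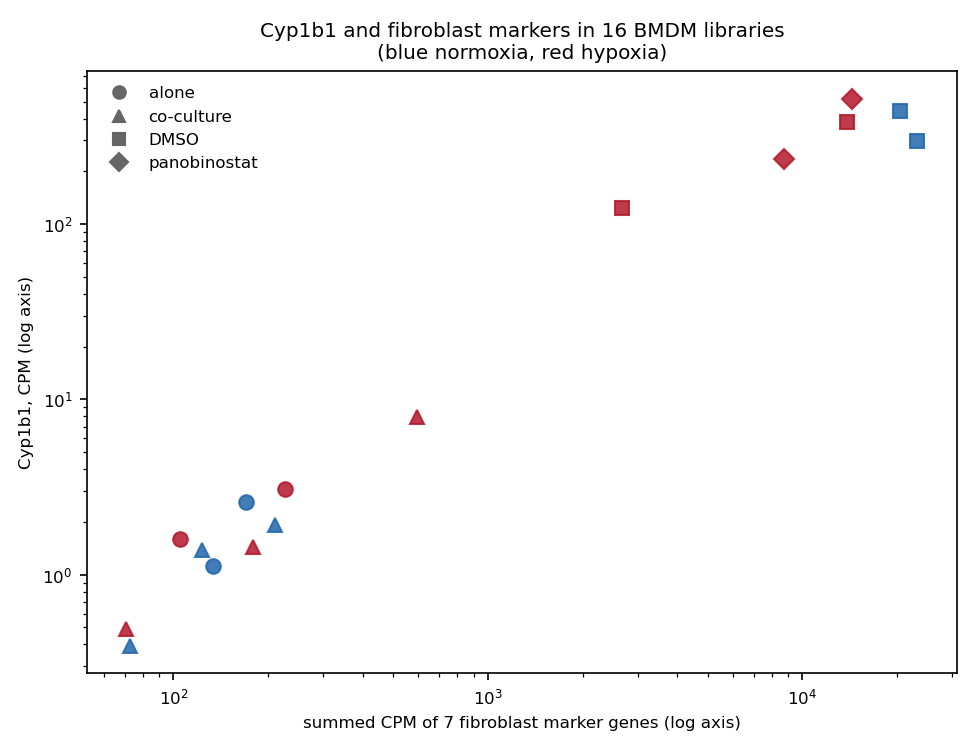
Cyp1b1 (y axis, CPM without TMM scaling, log axis) against the summed CPM of 7 fibroblast marker genes (x axis, log axis) in the 16 BMDM libraries, normoxia in blue and hypoxia in red, with circles for cells alone, triangles for co-culture, squares for DMSO and diamonds for panobinostat. The 6 libraries of the panobinostat experiment lie to the upper right of the other 10.

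Ahr was higher in these BMDM too, at 29.0 and 9.83 CPM with DMSO in normoxia, 35.2 and 12.4 CPM with DMSO in hypoxia and 13.1 and 22.1 CPM with panobinostat. The DMSO hypoxia library with the lowest fibroblast marker sum, replicate 1, had the most Ahr. The part of fibroblast transcripts in these Ahr levels was not tested. Cyp1a1 remained at no more than 7 counts in any of the 6 libraries. With DMSO in normoxia 3 of 5 members tested were lower in BV2 than in BMDM, against 44.2% of all genes that differed. Ahr had 1 and 0 counts in the normoxic BV2 libraries, and Cyp1b1 had 4 and 3. Both were tested because of their BMDM counts, so their calls only restate the levels. Those BMDM libraries hold the fibroblast markers described above, whose part in the result was not tested. Ahrr was lower by 3.06 ± 0.72 on the log2 scale (−3.06, adjusted p = 0.00702), a call lost without normoxic BV2 replicate 2 (−2.72). Tiparp (0.20 ± 0.19, adjusted p = 0.412) and Nqo1 (−2.20 ± 1.05, adjusted p = 0.114) were not called.

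Beside the members, lists of related genes were followed in the cells grown alone. Among 10 partners of the receptor, 2 rose and 3 fell with hypoxia in BV2, 2 rose and 2 fell among 9 tested in GL261, and 1 rose and 0 fell in BMDM. In the same comparisons 61.9%, 44.6% and 23.9% of all genes were called, so these counts are not read as a result about the list. The gene called higher in all 3 of these comparisons was Arnt, the shared partner of Ahr and the hypoxia-inducible factors. BV2 gave a log2 fold change of 1.01 ± 0.12, GL261 of 0.71 ± 0.13 and BMDM of 0.59 ± 0.18. The lists were chosen with earlier results known, so these are descriptions without p-values. In BMDM with DMSO, Arnt did not rise, at 67.4 ± 1.80 CPM (SD, n = 2) in normoxia and 65.0 ± 1.49 in hypoxia. Of the 10 partners, 0 were called there, beside 0.483% of all genes. With DMSO, BV2 went from 49.7 ± 2.66 to 104 ± 18.1 CPM of Arnt (SD, n = 2 each). Arnt was at 45.0 ± 4.48 CPM (SD, n = 2) in normoxic BV2 and 48.5 ± 0.403 CPM (n = 2) in normoxic GL261, and its level was not called different between the lines (0.01 ± 0.12, adjusted p = 0.945 by edgeR). The chaperone subunit Ptges3 fell in BV2 (−1.57) and GL261 (−0.70), and Hsp90ab1 fell in GL261 (−1.30).

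Of 11 other genes known to respond to the receptor, 5 were tested in GL261 and BV2 and 6 in BMDM. In GL261 2 rose with hypoxia, Slc7a5, an amino acid transporter that carries kynurenine (1.92), and Nfe2l2, which encodes NRF2 (1.13). In BMDM the same 2 genes rose, Slc7a5 by 1.20 and Nfe2l2 by 0.67, and in BV2 Nfe2l2 alone rose (0.35). The list's median log2 fold change was 1.08 in GL261, 0.35 in BV2 and 0.61 in BMDM, against −0.03, 0.00 and 0.03 over all genes tested. In the kynurenine pathway, 3 of 8 genes tested rose and 2 fell in BV2, among them Ido2 upward (2.98) and Kyat3 downward (−2.23), while in GL261 1 of 4 rose (Kyat1, 0.65) and 1 fell (Kyat3, −1.48). These counts too stand beside 61.9% of all genes called in BV2, 44.6% in GL261 and 23.9% in BMDM.

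Among 8 other targets of NRF2, set beside Nqo1, 3 rose and 4 fell with hypoxia in BV2, 2 rose and 4 fell in GL261, and 2 rose and 0 fell in BMDM, beside the same 61.9%, 44.6% and 23.9% of all genes. Gclm, a subunit of the enzyme that starts glutathione synthesis, fell in BV2 (−1.45) and GL261 (−1.72), the lines in which Nqo1 was called lower. Hmox1, haem oxygenase, rose in BV2 (2.85), GL261 (2.29) and BMDM (1.62), so the list did not move one way. Among subunits of the hypoxia-inducible factors and reference genes of hypoxia, 9 of 10 tested rose in BV2 alone, 8 of 9 in GL261 alone and 7 of 9 in BMDM alone. Bnip3, a mitophagy receptor, was at 5.28, 4.50 and 4.95 on the log2 scale. In BMDM with DMSO, 0 of 9 were called, with a median log2 fold change of 1.96, where 0.483% of all genes were called.

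Across the 18 group means, the genes whose log2 levels were most like those of each member were ranked by Pearson's r, as a description over groups that share cell lines and experiments. For Tiparp these were Rlf (0.949), Kdm3a (0.947) and Pip5k1a (0.934), and for Nqo1 they were Txnrd1 (0.914), which is one of the NRF2 targets above, Cdr2 (0.914) and Nt5c (0.908). Ahr was closest to Pxdc1 (0.977), Gab1 (0.976) and Sorbs3 (0.972), and Cyp1a1 to Cyp4f40 (0.977), Hrk (0.977) and Fam71f1 (0.975). Cyp1b1 was closest to Fgf7 (0.991), Ankrd1 (0.984) and Fhl2 (0.984). For Ahrr no gene came nearer than Pik3r1 (0.890), followed by Skil (0.868) and Aldh3a2 (0.857).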

How the data were processed

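Values were raw gene counts deposited by the authors for each library in 3 tables. Per the submitters' processing notes, reads were handled with Trimmomatic 0.36, STAR 2.6 and HTSeq 0.9.1 on mm10, with Picard 2.17.1 for the 16 BV2 and GL261 libraries. Strand setting and annotation are not given in the sources used here. From the counts, edgeR 4.0.16 (R 4.3.3, limma 3.58.1) fitted group means for each cell type of each experiment, and jointly for differences between cell types. It used TMM factors, its default filter (10 counts in enough libraries, 15 in total), the quasi-likelihood F test and Benjamini-Hochberg adjustment over all genes tested (0.05). Standard errors are the log2 fold change over the root of F. All 6 members were named in every comparison where they were tested. Members and gene lists were chosen with earlier results of these data known, and the fibroblast markers after seeing the values. One gene of the lists is not reported here. From each list up to 2 called genes with the largest rise and fall were eligible to be named.

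Partner transcripts were measured over genes at 20 CPM or more in the partner alone and at least 100-fold higher there (0.5 CPM added). Likeness used log2(CPM + 0.5) over 18 groups. Same-numbered libraries deviated together in the panobinostat experiment, with correlations from 0.154 to 0.389 in BV2 and 0.336 to 0.593 in BMDM, and were taken as paired there. Replicate numbers come from the titles. Same-numbered BMDM co-cultures in normoxia and hypoxia also deviated together (0.455, 0.244 and 0.407). They were not taken as paired, since correlations over all BMDM pairs of the co-culture experiment went down to −0.00185. That lowest value was between hypoxic BMDM alone and normoxic co-culture. Standard errors for hypoxia in BMDM co-culture therefore leave out a pairing that those libraries show. Alternatives were DESeq2 1.42.0, its size factors, other filters, a replicate block, the compared groups alone and each library left out. The scripts were tested on simulated data.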

Additional observations from a re-analysis of the deposited data

Results flagged for a closer look

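The hypoxia responses of 2 members differed between the cell lines by a test of the difference itself, which called 37.4% of all genes and 2 of 6 members, so a difference of this kind is not particular to the members. For Ahrr the log2 response was 1.92 smaller in BV2 than in GL261 (−1.92, adjusted p = 2.54e-04 by edgeR), and for Tiparp it was 0.58 smaller (−0.58, adjusted p = 0.0475). The median of this difference over all genes tested was 0.15, so relative to that median both are slightly larger. For Ahrr, 14 of 14 alternative settings gave the call, and for Tiparp 6 of 14. All 4 Tiparp libraries in hypoxia lay above all 4 in normoxia in both lines, so the difference is one of size and not of direction. The hypoxia responses in each line helped choose the members, and every setting reuses the same libraries. Both differences are therefore descriptions.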

How the results depend on the processing

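Among the members, direction held in all alternatives of another tool, scaling, filter or replicate block for the effects that were called or whose fold change is given above (62, 67, 53, 53 and 58 results unchanged under DESeq2, its size factors, a mean CPM of at least 5, no filter and the replicate block). Counts of members called moved as follows. Keeping only genes at a mean of 5 CPM left 1 for hypoxia in BV2 alone, 1 in BV2 co-culture, 0 for co-culture in BV2 at either oxygen level, 1 for hypoxia in BMDM co-culture, 0 for co-culture in hypoxic BMDM and 1 for the BV2 minus GL261 response. With no filter they were 2 for co-culture in normoxic BV2, 4 and 2 for co-culture in normoxic and hypoxic GL261, 1 for the GL261 interaction, 2 and 4 for hypoxia in BMDM alone and in co-culture, 2 and 2 for co-culture in normoxic and hypoxic BMDM, 2 and 2 for hypoxia in BV2 and BMDM with DMSO, 1 for panobinostat in BMDM and 1 for the BV2 minus BMDM response. With the replicate block, whose numbers were taken as pairs only in the panobinostat experiment, they were 2 for co-culture in normoxic BV2, 2 and 1 for co-culture in normoxic and hypoxic GL261, 2 and 4 for hypoxia in BMDM alone and in co-culture, 2 for co-culture in normoxic BMDM, 2 for hypoxia in BV2 with DMSO and 1 for the BV2 minus BMDM response, and within 1.5 times the reported count elsewhere. DESeq2 gave 2 for co-culture in normoxic BV2, 1 for co-culture in normoxic GL261 and 1 for its interaction, 2 and 1 for hypoxia in BMDM alone and in co-culture, and 1 each for BV2 minus GL261 and BV2 minus BMDM. DESeq2 size factors gave 1 for BV2 minus GL261. Fits of the compared groups alone gave 2 and 1 for hypoxia in BMDM alone and in co-culture, 0 for co-culture in hypoxic BMDM and 0 for hypoxia in BMDM with DMSO; for interactions they equal the reported fit and were not run.

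Leaving out 1 library at a time, where a remaining lone library is assumed to vary like the other groups, gave 1 to 2 members called for hypoxia in BV2 alone, 0 to 1 for co-culture in normoxic BV2, 0 to 1 for co-culture in hypoxic GL261, 1 to 2 for hypoxia in BMDM co-culture, 0 to 1 for co-culture in hypoxic BMDM, 1 to 2 for hypoxia in BV2 with DMSO, 0 to 1 in BMDM with DMSO and 1 to 2 for BV2 minus GL261. Among effects that were called or whose fold change is given above, directions turned in 6 of these fits, none of them for a called effect. Other uncalled effects, such as those of hypoxia on Ahr and Nqo1 in BMDM alone, turned as well. Ahrr under co-culture in hypoxic GL261 lay between −0.59 and 0.16, above 0 without co-culture hypoxia replicate 2. Nqo1 lay between −1.95 and 0.23 for hypoxia in BV2 with DMSO, above 0 without normoxia replicate 1. For BV2 minus GL261, Nqo1 became −0.04, −0.63 and −0.27 without normoxic BV2 replicate 1, normoxic GL261 replicate 1 and hypoxic GL261 replicate 2, with a highest value of 0.49, and its level in BV2 minus BMDM lay between −3.63 and 0.32, above 0 without normoxic BMDM replicate 2. With a 30-fold limit for specific genes, the BV2 share in hypoxic GL261 co-cultures was 0.271%. Depth limits Ahr, Cyp1a1 and Cyp1b1 in BV2, where differences below the limit of 3 counts could not be seen.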
